A study of Mus musculus with 32 samples.

Results

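The genes described here code for the metallothioneins and for proteins that carry or sense zinc and manganese in mouse liver: Mt1, Mt2, Mtf1, Slc39a14, Slc39a4, Slc30a1 and Slc30a10. These 7 genes were chosen by name out of the 20076 genes of the count table, with earlier results of the same data known, and all 7 passed the filter on low counts that kept 11566 genes. The values that led to the choice were the fasted and fed levels themselves, so the effect of fasting on the 7 genes is given as a description with no test. Livers came from male C57BL/6J mice that lacked Acadm, the gene of medium-chain acyl-CoA dehydrogenase (MCAD-KO), or were wild type (WT). MCAD is a mitochondrial enzyme that breaks down medium-chain fatty acids. The mice ate a semisynthetic low-fat diet or a palm-oil-rich high-fat diet for 6 weeks and were killed in the morning, either fed or after 16 h without food. This gave 8 groups of 4 mice, WT and MCAD-KO, low-fat and high-fat, fed and fasted, with ages from 7.5 to 16 in labels that give no unit. MCAD is absent from every tissue of the knockout from conception, so a difference from WT is that of a lifelong, whole-body loss.

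RNA was read from the 3′ end of transcripts, and the summed counts per mouse ran from 2031053 to 4292200. Acadm had 26 to 94 counts in the 16 MCAD-KO mice and 566 to 2752 in the 16 WT mice. Of the 32 mice 2 were left out. MCAD-KO high-fat fasted replicate 4 had 48165 counts per 1000000 counts (CPM) of heart markers and 895 CPM of hepatocyte markers. WT low-fat fed replicate 2 had 40087 CPM of hepatocyte markers, against 48844 to 72427 CPM in the 30 mice used. Among those 30, WT high-fat fasted replicate 2 held 17840 CPM of acinar pancreas markers and MCAD-KO high-fat fed replicate 1 held 2631 CPM, with 10 of 10 measured markers found in each. The median for these markers was 14.2 CPM over fasted and 27.4 CPM over fed mice. MCAD-KO low-fat fasted replicates 3 and 4 held 292 and 126 CPM of adrenal cortex markers, with 7 of 7 found in each, and no other mouse was above 41.9 CPM. Where a call changed without these 4 mice, this is given beside the values concerned. In whole liver, fewer cells of a type and less RNA per cell cannot be told apart.

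Metallothioneins are small, cysteine-rich proteins that bind zinc, copper and cadmium, buffer free zinc and hold a store of it. Their genes are switched on by zinc through MTF-1, the zinc-finger factor coded by Mtf1, which binds short metal response elements in promoters, and also by glucocorticoids and by interleukin-6 signalling. In liver they are known to respond to metals, starvation, stress and inflammation. ZIP proteins (Slc39 family) bring zinc into the cytosol, and ZnT proteins (Slc30 family) take it out. Slc39a14 codes for ZIP14, a zinc, manganese and iron importer of hepatocytes that is known to be induced in the acute phase. Slc39a4 codes for ZIP4, the importer best known from gut absorption of dietary zinc. Slc30a1 codes for ZnT1, a zinc exporter of the plasma membrane, and Slc30a10 codes for ZnT10, a manganese exporter.

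Mt1 (ENSMUSG00000031765) lies on chromosome 8 from 94179082 to 94180327 on the plus strand of GRCm38, and Mt2 (ENSMUSG00000031762) lies before it from 94172664 to 94173568 on the same strand, with 5513 bases between them. The pair are shown first because their levels moved most and because their promoters can be read for the metal response element. The core of this element was searched as TGCACNC and TGCGCNC on both strands, from 250 bases before the RefSeq start of transcription to 30 bases after it. These starts need not be the gene starts given here, which come from GENCODE, and GENCODE lists further starts 129 and 159 bases downstream of the first for Mt1 and 196 bases for Mt2. The counts of matches hold for the windows printed, and the stretches before other starts were not searched. RefSeq promoter sequences on GRCm38.p6 were at hand for 5 of the 7 genes. Capitals mark matches to the core, on either strand, and all sequences run 5′ to 3′ on the plus strand.
Mt1, chr8:94178839-94179118: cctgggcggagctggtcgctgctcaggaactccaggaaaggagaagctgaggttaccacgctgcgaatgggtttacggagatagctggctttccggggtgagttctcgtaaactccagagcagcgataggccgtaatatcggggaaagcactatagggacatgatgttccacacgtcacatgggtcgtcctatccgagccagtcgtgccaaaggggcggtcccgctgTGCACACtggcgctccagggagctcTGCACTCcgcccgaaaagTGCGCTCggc
Mt2, chr8:94172368-94172647: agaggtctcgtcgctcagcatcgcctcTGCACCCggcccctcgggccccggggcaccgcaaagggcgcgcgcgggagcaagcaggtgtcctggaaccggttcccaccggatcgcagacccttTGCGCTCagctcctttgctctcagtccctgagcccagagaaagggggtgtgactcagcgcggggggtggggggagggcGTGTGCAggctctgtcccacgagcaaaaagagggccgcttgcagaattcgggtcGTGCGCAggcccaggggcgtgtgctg
Slc30a10, chr1:185454598-185454877: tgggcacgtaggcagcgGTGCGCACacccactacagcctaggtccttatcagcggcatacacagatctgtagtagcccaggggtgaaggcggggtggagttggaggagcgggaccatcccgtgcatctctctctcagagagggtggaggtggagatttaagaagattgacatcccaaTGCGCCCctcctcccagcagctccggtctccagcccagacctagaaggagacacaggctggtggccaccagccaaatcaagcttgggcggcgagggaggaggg
The Mt2 window held 4 matches and the Mt1 window held 3. The Slc30a10 window, shown because its gene was lower in fasted mice, also held 3, of which 2 overlap on opposite strands. The Slc30a1 window (chr1:191906531-191906810) held 1 match, and the Mtf1 window (chr4:124802299-124802578) held 0. Of 32851 promoter windows of the same length, 24.1% held at least 1 match, 1.73% at least 3 and 0.405% at least 4. A match is a string of letters and was not tested as a binding site.

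Among the 30 mice used, Mt1 and Mt2 were higher in every fasted mouse than in every fed mouse. This did not hold for the left-out WT low-fat fed replicate 2, whose 143 CPM of Mt1 lay above 2 fasted mice and whose 97.7 CPM of Mt2 lay above 4. Over the 15 fed mice Mt1 ran from 4.81 to 45.4 CPM with a median of 22.4, and over the 15 fasted mice from 50.0 to 1315 CPM with a median of 364. For Mt2 the fed mice ran from 3.11 to 24.5 CPM, median 11.0, and the fasted mice from 31.2 to 894 CPM, median 140.2. Of all genes tested, 0.311% had fasted mice above fed mice without overlap in all 4 combinations of genotype and diet, and 2 of the 7 genes, Mt1 and Mt2, were among these.

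**Figure D1:**
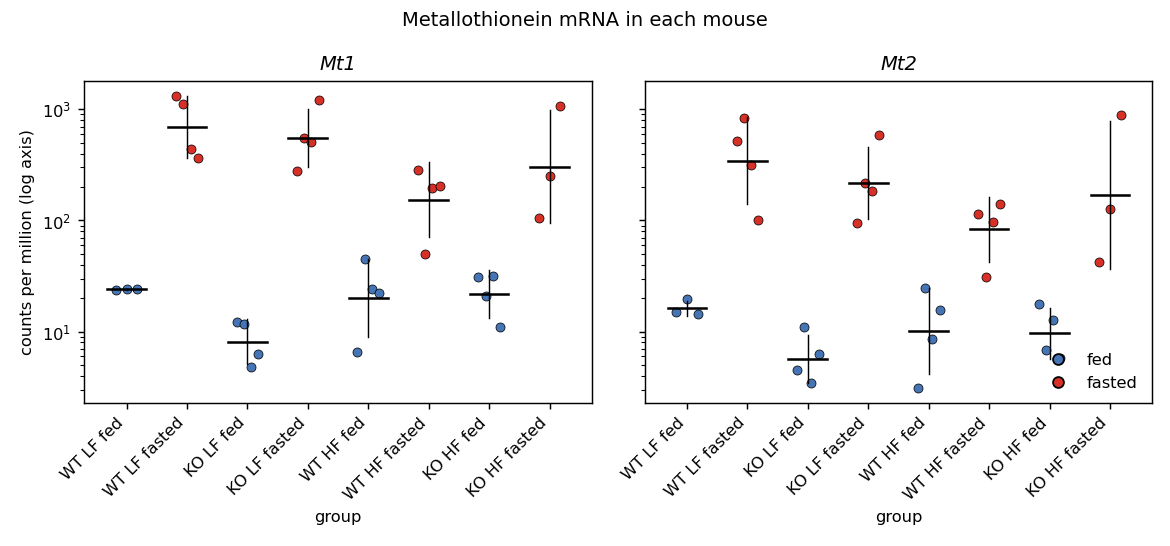
Level of Mt1 and Mt2 in each mouse of the 8 groups, in CPM on a log axis. Each point is 1 mouse, the black bar is the geometric mean and the line is ± 1 SD on the log2 scale. Among these 30 mice all fasted mice lie above all fed mice, with Mt1 reaching at most 45.4 CPM in fed mice and at least 50.0 CPM in fasted mice.

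In WT mice on the low-fat diet Mt1 stood at 23.6, 24.1 and 24.2 CPM in the 3 fed mice and at 1315, 1112, 439 and 364 CPM in the 4 fasted mice. In MCAD-KO mice on the same diet it stood at 12.2, 11.8, 4.81 and 6.26 CPM when fed and at 279, 556, 505 and 1204 CPM when fasted. The WT fed mice lay within 1.03-fold of each other, and the MCAD-KO fed mice lay below all of them. With 72 to 98 counts each, the SD of log2 CPM of these WT mice was 0.02. Counting alone gives 0.23 over all fed mice, so this closeness does not measure the spread between mice. In WT mice on the high-fat diet Mt1 stood at 6.61, 45.4, 24.1 and 22.4 CPM when fed and at 287, 50.0, 194 and 202 CPM when fasted. In MCAD-KO mice on the high-fat diet it stood at 30.7, 20.8, 31.5 and 10.9 CPM when fed and at 105, 254 and 1062 CPM when fasted. The group with the lowest fasted levels was thus WT high-fat, and its lowest mouse, replicate 2 at 50.0 CPM, is the one with the most pancreas RNA, whose part in this value was not tested. The 3 fasted MCAD-KO mice on the high-fat diet spanned 10.1-fold.

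Mt2 separated fed from fasted mice in the same way, though the order of mice within a group often differed from that for Mt1. In low-fat WT mice it stood at 15.1, 19.4 and 14.5 CPM when fed and at 517, 828, 319 and 101 CPM when fasted. In low-fat MCAD-KO mice it stood at 4.49, 11.0, 3.43 and 6.26 CPM when fed and at 94.0, 218, 185 and 582 CPM when fasted. The fed MCAD-KO mice were again below all fed WT mice, while the fasted mice of both genotypes overlapped. In high-fat WT mice Mt2 stood at 3.11, 24.5, 8.64 and 15.6 CPM when fed and at 115, 31.2, 96.4 and 140.2 CPM when fasted. In high-fat MCAD-KO mice it stood at 17.8, 6.79, 12.6 and 5.77 CPM when fed and at 42.5, 128 and 894 CPM when fasted. Replicate 3 of this last group had the highest Mt2 of all 30 mice and spread its group over 21.0-fold. The ratio of Mt1 to Mt2 counts was 1.73 in the median fed mouse (1.0 to 3.06) and 2.07 in the median fasted mouse (1.19 to 3.58).

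Averaged over genotypes and diets, the fitted level of Mt1 was 24.6-fold higher in fasted mice (log2 4.62, SE 0.40) and that of Mt2 was 23.1-fold higher (log2 4.53, SE 0.47), with 30 mice in the fit. For Mt1 the fasted level was 33.6-fold above fed in WT low-fat, 72.9-fold in MCAD-KO low-fat, 7.43-fold in WT high-fat and 20.1-fold in MCAD-KO high-fat mice. For Mt2 the same 4 values were 26.9, 43.7, 7.37 and 32.8-fold. In mean log2 CPM the 4 fasted groups ranked WT low-fat, MCAD-KO low-fat, MCAD-KO high-fat and WT high-fat for both genes, and each neighbour in that order differed by less than the larger SD of the pair. The next step down, from the lowest fasted to the highest fed group, was the one gap between neighbours without overlap of mice, 2.65 on the log2 scale for Mt1 and 2.32 for Mt2. Without the 4 mice with pancreas or adrenal RNA the log2 effect of fasting was 4.59 for Mt1 and 4.49 for Mt2.

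**Figure D2:**
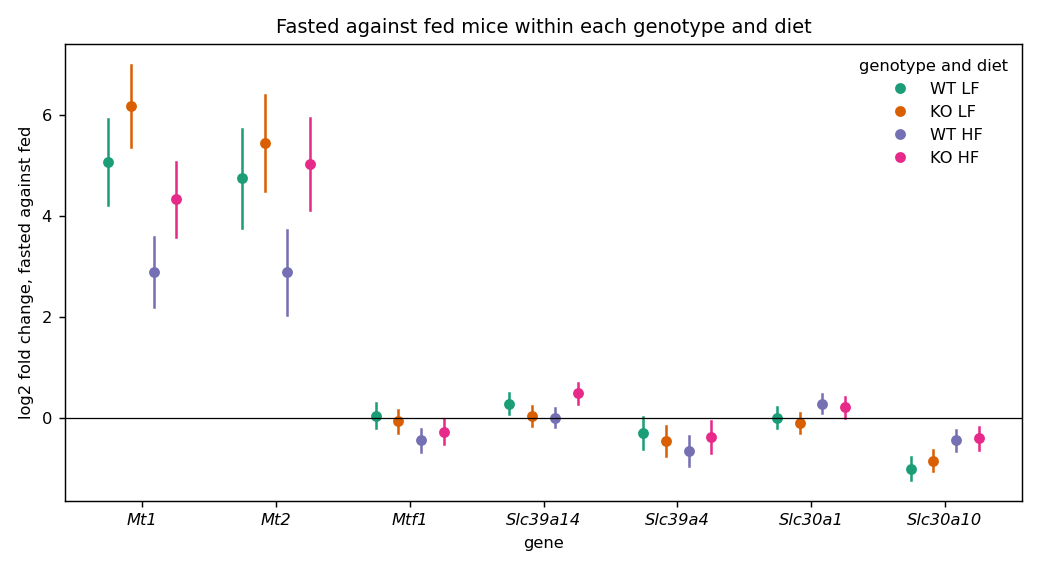
Log2 fold change of fasted over fed mice for the 7 genes, fitted by edgeR within each combination of genotype and diet. Points are estimates and lines are ± 1 SE. Mt1 and Mt2 lie between 2.88 and 6.19 in all 4 combinations, Slc30a10 lies below 0 in all 4, and the others lie within 0.67 of 0.

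Mtf1 (ENSMUSG00000028890, chr4:124802104-124849800, plus strand), the gene of the zinc-sensing factor, stayed in one narrow band. It ran from 16.4 to 38.5 CPM with a median of 28.0 in fed mice and from 16.8 to 37.0 CPM with a median of 22.5 in fasted mice. The averaged log2 effect of fasting was -0.19 (SE 0.12), between -0.45 in WT high-fat and 0.04 in WT low-fat mice. Fed and fasted mice overlapped in 3 of the 4 combinations, and in WT high-fat mice the 4 fasted mice (20.9 to 21.5 CPM) lay below the 4 fed mice (24.2 to 32.9 CPM). The share of all genes that did so in this 1 combination was not counted. At 55 to 90 counts each, the SD of log2 CPM of these fasted mice was 0.016. Counting alone gives 0.18 over all fasted mice, so their closeness does not measure the spread between mice.

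Among importers, Slc39a14 (ENSMUSG00000022094, chr14:70303469-70351425, minus strand) ran from 64.8 to 103 CPM in fed and from 61.3 to 157 CPM in fasted mice. Its group means lay between 68.1 ± 2.98 CPM (SD, n = 3) in WT low-fat fed and 109 ± 44.6 CPM (SD, n = 3) in MCAD-KO high-fat fasted mice. In this last group the 3 mice stood at 68.3, 103 and 157 CPM, in the same order as their Mt1 and Mt2. The averaged log2 effect of fasting was 0.19 (SE 0.10), and fed and fasted mice overlapped in all 4 combinations. Slc39a4 (ENSMUSG00000063354, chr15:76612383-76617384, minus strand) ran from 16.9 to 48.1 CPM in fed mice and from 11.3 to 37.9 CPM in fasted mice. Its log2 effect of fasting was -0.45 (SE 0.15), below 0 in all 4 combinations, from -0.30 to -0.67, though the mice overlapped in each. With all 32 mice that value was -0.66, where the returned WT low-fat fed mouse had 71.2 CPM and the returned MCAD-KO high-fat fasted mouse with heart RNA had 1.29 CPM, and without the 4 mice with pancreas or adrenal RNA it was -0.33.

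Among exporters, Slc30a1 (ENSMUSG00000037434, chr1:191906767-191913247, plus strand) did not separate fed from fasted mice. It ran from 59.4 to 132 CPM in fed and from 60.3 to 124 CPM in fasted mice, and its log2 effect of fasting was 0.09 (SE 0.10). Slc30a10 (ENSMUSG00000026614, chr1:185454848-185468762, plus strand) was lower in fasted mice. In low-fat WT mice it stood at 104, 107 and 96.1 CPM when fed and at 35.8, 55.0, 64.3 and 48.3 CPM when fasted. In low-fat MCAD-KO mice it stood at 96.1, 88.5, 95.5 and 93.9 CPM when fed and at 62.2, 45.3, 36.4 and 62.6 CPM when fasted. On the low-fat diet, then, every fasted mouse of either genotype lay below every fed mouse. Of all genes tested, 3.63% had fasted mice below fed mice without overlap in both low-fat combinations, and 1 of the 7 genes was among them. On the high-fat diet the groups overlapped, with 82, 52.0, 61.4 and 97.4 CPM in fed against 48.4, 45.1, 71.0 and 48.2 CPM in fasted WT mice. MCAD-KO mice on that diet stood at 47.9, 75.5, 71.2 and 77.9 CPM when fed and at 73.1, 39.8 and 40.3 CPM when fasted. The means of the high-fat fed groups thus lay between those of the low-fat fed and the fasted groups. The averaged fitted fasted level of Slc30a10 was 0.622 times the fed level (log2 -0.68, SE 0.11), with log2 values of -1.01 in WT low-fat, -0.86 in MCAD-KO low-fat, -0.45 in WT high-fat and -0.42 in MCAD-KO high-fat mice.

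**Figure D3:**
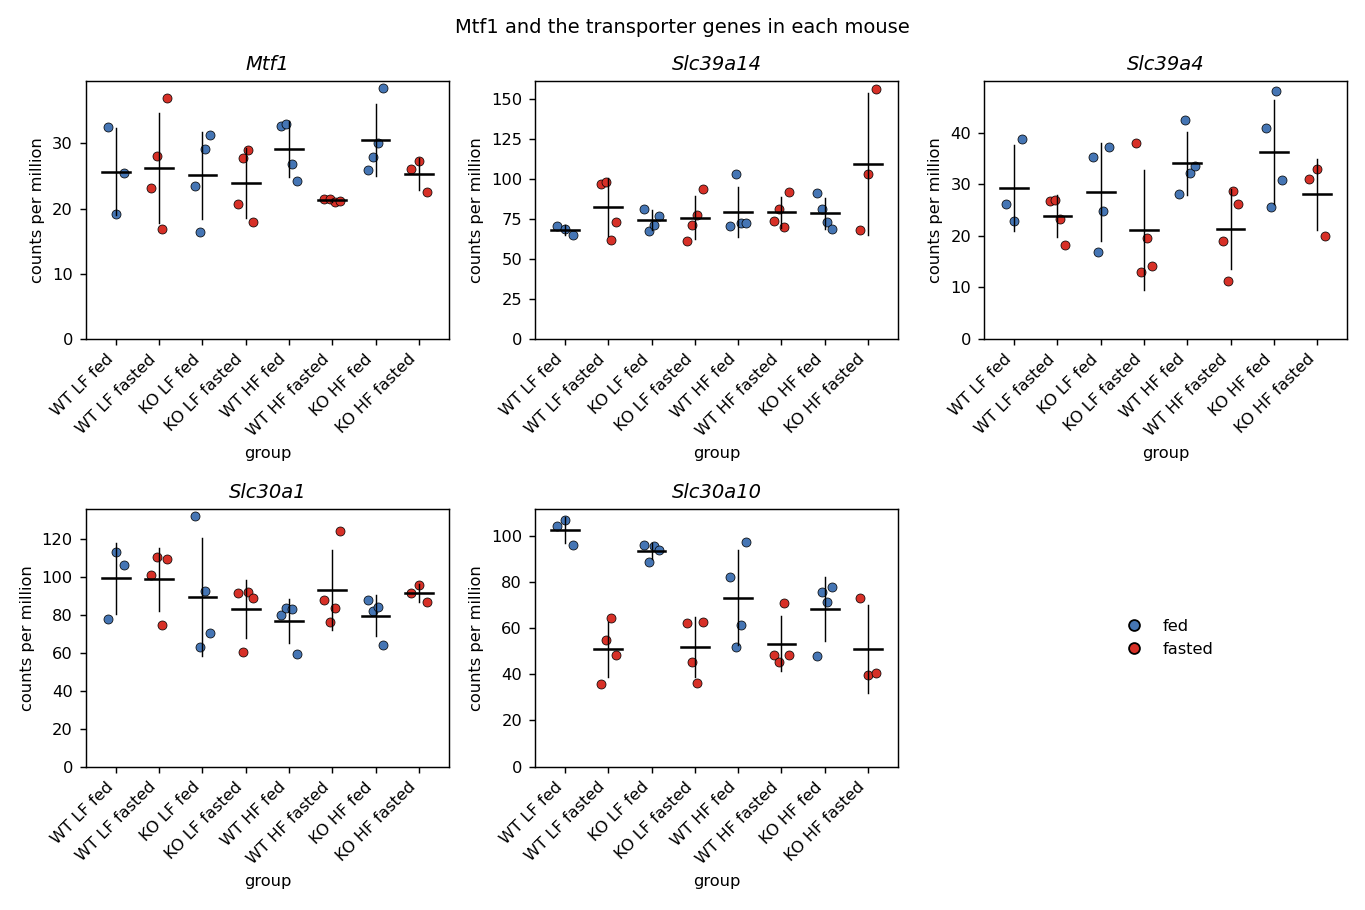
Level of Mtf1 and of the 4 transporter genes in each mouse of the 8 groups, in CPM from 0. Each point is 1 mouse, the bar is the mean and the line is ± 1 SD. Slc30a10 lies between 88.5 and 107 CPM in low-fat fed mice and between 35.8 and 64.3 CPM in low-fat fasted mice, while for the others the fed and fasted groups overlap in all or nearly all combinations.

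For comparison, fasting changed 18.9% of the 11566 genes (adjusted p below 0.05 in the quasi-likelihood test of edgeR, adjusted by Benjamini-Hochberg). Among 35 further genes of zinc, manganese and copper handling, listed with earlier results known, 28 could be tested and 5 were called, which is 17.9%. Of the other zinc importers, 8 of 12 were tested and 2 fell. They were Slc39a10, a plasma membrane importer (log2 -1.29, SE 0.31, adjusted p = 0.00206), and Slc39a11 (log2 -0.62, SE 0.16, adjusted p = 0.00506). Slc39a10 had few reads, 0 to 27 counts per mouse, so the size of its fall is uncertain. Of the other zinc exporters 6 of 8 were tested and 0 were called. Of the other manganese genes 5 of 6 were tested and 1 fell, Slc11a2, which codes for the divalent metal transporter DMT1 (log2 -0.43, SE 0.11, adjusted p = 0.00525). All 9 copper genes were tested. Slc31a1, the copper importer CTR1, fell (log2 -0.29, SE 0.08, adjusted p = 0.00689), and Ccs, the chaperone that loads copper into superoxide dismutase, rose (log2 0.29, SE 0.08, adjusted p = 0.00864). With all 32 mice the last pair were not called (adjusted p = 0.142 and 0.468). Mt3 and Mt4, the other metallothionein genes looked for, were not found by symbol in the count table.

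The diet, averaged over genotype and feeding, changed 3.49% of genes tested and 0 of the 7. The nearest to the threshold were Slc30a10, with a log2 difference of -0.22 (SE 0.11, 95% interval -0.45 to 0.00, adjusted p = 0.329, edgeR), and Slc39a14, with 0.19 (SE 0.10, 95% interval -0.01 to 0.39, adjusted p = 0.336). Mt1 differed by -0.27 (SE 0.36, 95% interval -1.01 to 0.47) and Mt2 by -0.33 (SE 0.44, 95% interval -1.23 to 0.57). With this spread, differences anywhere within these intervals remain possible. Unadjusted p was below 0.05 for 1830 genes and for none of the 7.

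Whether the response to fasting differed between diets was tested as an interaction, which called 2.46% of all genes and 0 of the 7. Mt1 came closest. The log2 effect of fasting on Mt1 was smaller on the high-fat diet, by a difference of -2.02 (SE 0.71, 95% interval -3.50 to -0.54). Its unadjusted p in edgeR was 0.0098 and its adjusted p 0.166. In fasted WT mice the high-fat levels of Mt1 (50.0 to 287 CPM) lay below all low-fat levels (364 to 1315 CPM), as did 3.44% of all genes, and 1 of the 7. In fasted MCAD-KO mice the diets overlapped. The call turned on MCAD-KO high-fat fasted replicate 3, the mouse with 1062 CPM. Without it the log2 difference grew to -2.72 and passed (adjusted p = 0.0308, edgeR), and without the 4 mice with pancreas or adrenal RNA it shrank to -1.48 with an adjusted p of 0.407. For Mt2 the difference was -1.14 (SE 0.87, adjusted p = 0.654, edgeR). For Slc30a10 it was 0.50 (SE 0.22, adjusted p = 0.300, edgeR), with fed and fasted mice closer together on the high-fat diet.

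No genotype difference of these genes passed the threshold in the main fits. Averaged over diet and feeding, genotype called 1 gene (0.00865%) and 0 of the 7. The log2 differences of the 7 ran from -0.13 for Mt1 to 0.11 for Slc39a14, each with an adjusted p of 1.0 (edgeR). For Mt1 and Mt2 this average joined larger differences of opposite sign, lower in low-fat fed and higher in high-fat fasted MCAD-KO mice, given below. The interaction of fasting with genotype called 0% of genes, and although 573 genes had an unadjusted p below 0.05, none of the 7 did. For Mt1 it was 1.28 (SE 0.70, 95% interval -0.18 to 2.74) and for Mt2 1.43 (SE 0.86, 95% interval -0.36 to 3.21). Without MCAD-KO high-fat fasted replicate 3 these were 0.57 and 0.40. These intervals are wide because fasted mice of one group differed by up to 21.0-fold.

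Within each combination of diet and feeding, MCAD-KO was compared with WT in a fit of those mice alone. In low-fat fed mice the comparison called 0.0193% of 10366 genes and 0 of the 7. Mt1 was at 8.76 ± 3.78 CPM (SD, n = 4) in MCAD-KO against 24.0 ± 0.353 CPM (SD, n = 3) in WT mice, a log2 difference of -1.45 (SE 0.31, 95% interval -2.11 to -0.80). Its unadjusted p was 1.4e-04 and its adjusted p 0.499 (edgeR). The SD of these WT mice was smaller than counting alone gives, as stated above. Mt2 was at 6.28 ± 3.33 against 16.4 ± 2.69 CPM, a log2 difference of -1.40 (SE 0.37, unadjusted p = 0.0011, adjusted p = 0.598). For these 2 of the 7 genes, and for 3.58% of all genes, the MCAD-KO mice lay below the WT mice without overlap. The fit with no filter on low counts called 39 of 16916 genes, and that with lane 2 of 10366. The call for Mt1 changed with the fit. Its adjusted p was 0.00297 with no filter on low counts, 0.0464 with the sequencing lane as a term, 0.0588 with the replicate block, 0.148 with DESeq2 and 1.0 in a fit of all 8 groups, and all 3 WT mice were sequenced on one lane. The left-out fed WT mouse had 143 CPM of Mt1, and with it in the fit the log2 difference was -2.63 and the adjusted p 0.839.

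In the other 3 combinations the metallothioneins of both genotypes overlapped. In low-fat fasted mice 0.0104% of genes and 0 of the 7 were called, with Mt1 at 636 ± 397 CPM in MCAD-KO and 807 ± 477 CPM in WT mice (SD, n = 4 each, log2 difference -0.34, SE 0.51). In high-fat fed mice 0.00998% of genes and 0 of the 7 were called, with Mt1 at 23.5 ± 9.72 and 24.6 ± 15.9 CPM (SD, n = 4 each, log2 difference -0.07, SE 0.55). In high-fat fasted mice 0.0096% of genes and 0 of the 7 were called. There Mt1 was at 474 ± 515 CPM (SD, n = 3) in MCAD-KO and 183 ± 98.4 CPM (SD, n = 4) in WT mice, a log2 difference of 1.36 with a 95% interval of -1.06 to 3.79. Slc39a14 differed by 0.46 (SE 0.23, unadjusted p = 0.0596, adjusted p = 0.996, edgeR) in these mice. The differences of Mt1 and Mt2 in high-fat fasted mice hung on MCAD-KO replicate 3: without it they were -0.04 and -0.17, against 1.36 and 1.89 with it. None of the Mt1 differences in the 4 combinations passed the adjusted threshold.

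The metallothioneins stood out among the 7 genes by how far mice of one group lay apart. The SD of log2 CPM within groups, pooled over the 30 mice, was 0.96 for Mt1 and 1.13 for Mt2, larger than for 97.3% and 99.2% of the 11566 genes. For Slc39a4 it was 0.46, for Slc30a10 0.33, for Mtf1 0.31, for Slc30a1 0.29 and for Slc39a14 0.27, the last larger than for 19.8% of genes. In fed mice the SD of Mt1 was 0.75 and that of Mt2 0.80, of which counting alone gives 0.23 and 0.30. In fasted mice they were 1.13 and 1.39, of which counting alone gives 0.06 and 0.08, so nearly all of the fasted spread lay between mice or their samples and not in read number. Group membership accounted for 88.8% of the variance of Mt1, 83.4% of that of Mt2 and 64.9% of that of Slc30a10, but for 20.5% to 36.4% in the other 4 genes. Fitting 8 group means to 30 mice takes up part of the variance even in a gene with no group effect. That part was not taken off, and the shares also hold the fed and fasted levels that led to the choice of genes.

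**Figure D4:**
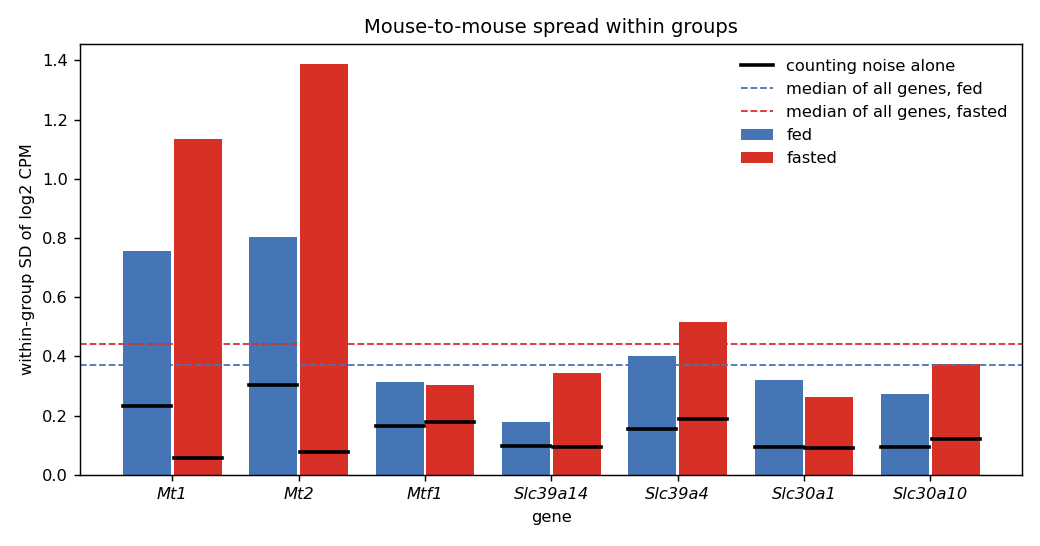
SD of log2 CPM within groups for the 7 genes in the 15 fed and the 15 fasted mice. Bars are the measured SD, black marks are the SD that counting alone would give, and dashed lines are the median over all genes. Mt1 and Mt2 stand at 0.75 to 1.39, above the medians of 0.37 in fed and 0.44 in fasted mice.

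Whether fasting changed this spread was tested on the distance of each mouse from its group mean. The mean distance on the log2 scale was 0.55 in fed and 0.96 in fasted mice for Mt1 (p = 0.070), 0.64 and 1.11 for Mt2 (p = 0.085) and 0.14 and 0.28 for Slc39a14 (p = 0.043), by a two-sided permutation test. Over the 7 genes the adjusted p of these 3 and of Slc30a10 was 0.149, and for the others it was 0.509 to 0.545. No gene passed the threshold, although all 4 of these had the larger spread in fasted mice.

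Mice that were high in one metallothionein were high in the other. With group means taken off, the log2 CPM of Mt1 and Mt2 correlated at r = 0.85 in the 15 fed mice (adjusted permutation p = 0.0264, rho 0.72 with 0.0843) and at r = 0.95 in the 15 fasted mice (adjusted permutation p = 0.0022, rho 0.94 with 0.0020). Permutations were made within groups and adjusted over 12 relations to Mt1. Within lanes, with means of group and lane taken off, the values were 0.87 and 0.83 (adjusted permutation p = 0.0491 and 0.0068). This step leaves a mouse alone of its group on its lane with no distance from the mean. Such mice were WT high-fat fed replicate 4, MCAD-KO high-fat fasted replicate 3 and MCAD-KO low-fat fasted replicate 4. Permutations stayed within groups and not within lanes, so p within lanes does not match the distances used. In the fed mice the call was lost without WT high-fat fed replicate 1, 2 or 4, the mice at 6.61, 45.4 and 22.4 CPM of Mt1, with r = 0.72, 0.80 and 0.87 (adjusted permutation p = 0.122, 0.0569 and 0.0506). Without the 2 fed mice farthest out in Mt1, r was 0.67. Slc39a14 was the other gene related to Mt1, in fasted mice, with r = 0.77 (adjusted permutation p = 0.0487) and rho = 0.70 (adjusted permutation p = 0.0843). Within lanes, where the fasted mice alone on their lane add nothing, r was 0.27 (adjusted permutation p = 0.613). Lane and the loss of these mice cannot be told apart in this value. Leaving out 1 mouse lost the call for 14 of 30 mice, with r from 0.63, without MCAD-KO high-fat fasted replicate 3, to 0.91. The 30 include fed mice, whose removal leaves this r as it is and can move only its adjusted p. Without the 4 mice with pancreas or adrenal RNA the 3 relations had r of 0.85, 0.94 and 0.90 and passed no threshold (adjusted permutation p = 0.0583, 0.0583 and 0.087). Mtf1, Slc39a4, Slc30a1 and Slc30a10 had no such relation to Mt1, with r from -0.55 to 0.33 and adjusted permutation p of 0.253 or more.

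Acute-phase proteins are plasma proteins that hepatocytes make in larger or smaller amounts during inflammation. A score was made from 18 such genes as the mean of their standardised distances from the group mean. Its most abundant members were Fgb, Fgg and Fga, the fibrinogen chains, Hpx, which binds haem, and Cp, a copper-carrying ferroxidase. In fasted mice the score went with Mt1 at r = 0.65 and rho = 0.78, with Mt2 at r = 0.72 and rho = 0.86, and with Slc39a14 at r = 0.67 and rho = 0.71. Adjusted over the 14 relations, permutation p was 0.268, 0.268 and 0.535 for r, and 0.0242, 0.0115 and 0.0741 for rho, so the metallothioneins passed by rank and not by r. This relation was named when the genes were chosen, so its p is no independent support. Without the 2 fasted mice farthest out on the score, r was 0.73, 0.85 and 0.81. Without the 4 mice with pancreas or adrenal RNA 1 rank relation passed in place of 2.

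The relation depended on the mice included. MCAD-KO high-fat fasted replicate 3 had the highest score, 2.41, together with the largest distances from its group mean in Mt1 (1.80), Mt2 (2.39) and Slc39a14 (0.60). Its group mates stood at scores of -0.80 and -1.60. Without this mouse r in fasted mice was 0.34 for Mt1, 0.48 for Mt2 and 0.23 for Slc39a14, and no rank relation passed, as was so without either group mate or MCAD-KO low-fat fasted replicate 1. It was also the only mouse of its group on its lane. With means of group and lane taken off, which leaves this mouse with no distance from the mean, the values were -0.07, 0.15 and -0.29. In fed mice Mt2 went with the score at r = 0.63 and rho = 0.58 (adjusted permutation p = 0.268 and 0.230) and Mt1 at r = 0.38 (adjusted permutation p = 0.535), and within lanes these were 0.70 and 0.49. For the other 4 genes r lay between -0.40 and 0.28 in fed and fasted mice.

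**Figure D5:**
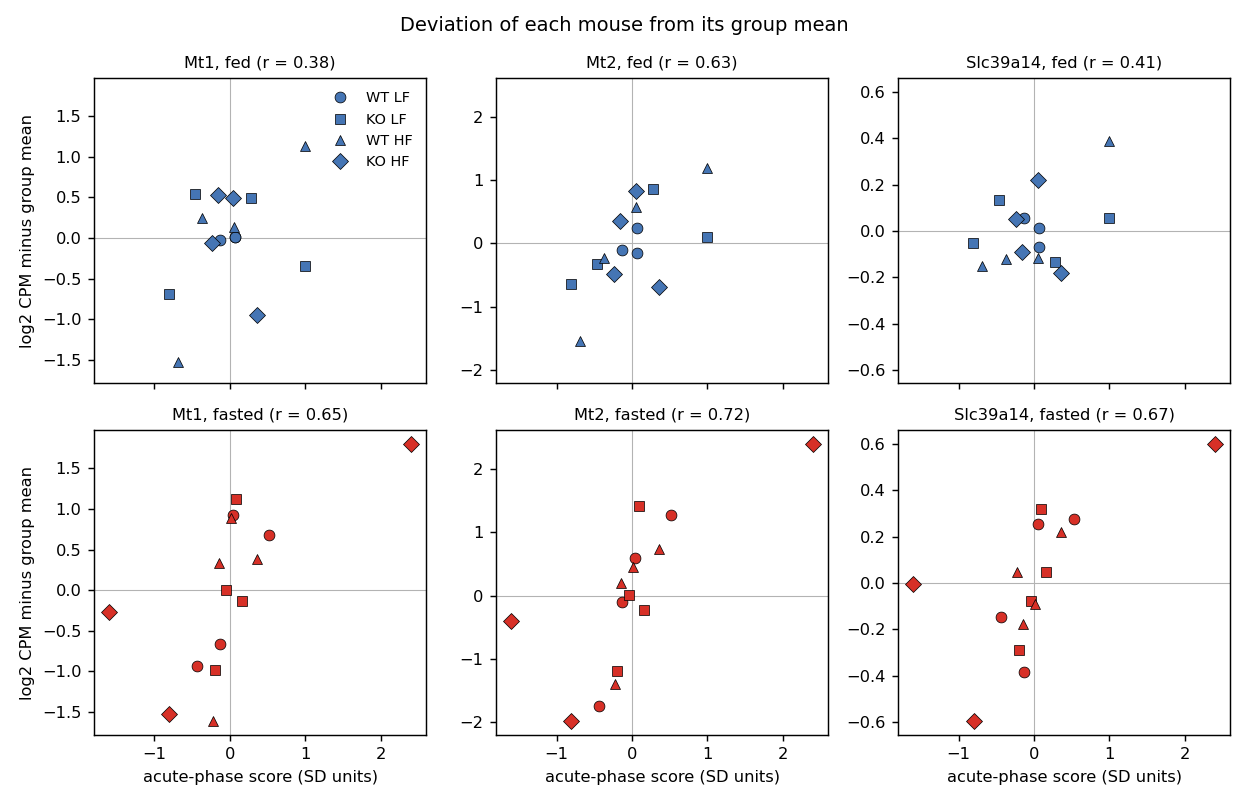
Distance of each mouse from its group mean in Mt1, Mt2 and Slc39a14 (log2 CPM) against the acute-phase score, for the 15 fed and the 15 fasted mice. Marker shapes show genotype and diet. MCAD-KO high-fat fasted replicate 3 lies farthest to the right at 2.41, and r is 0.65, 0.72 and 0.67 in fasted mice with it.

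Single acute-phase genes differed in how far they went with Mt1. Over the 30 mice, with group means taken off, the largest r were 0.66 for Serpina3n, a protease inhibitor, 0.65 for Hpx and 0.64 for Hp, the haemoglobin carrier haptoglobin. For Serpina3n r was 0.26 in fed and 0.79 in fasted mice, for Hpx 0.53 and 0.70, and for Hp 0.56 and 0.68. Saa1, the gene of serum amyloid A1, ran from 38 to 1684 CPM and had r = 0.37 with Mt1. Hamp, the gene of the iron hormone hepcidin, had r = -0.36 with Mt1 in fed and 0.16 in fasted mice. Among the most abundant, r was 0.39 for Fga, 0.44 for Fgb, 0.53 for Fgg and 0.63 for Cp. These are descriptions with no test, over mice read on 2 lanes.

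Fasting changed some genes of each of these lists, and over all genes tested 1130 rose and 1057 fell, the 18.9% given above. Of the 18 acute-phase genes 4 rose, Hp (log2 0.87, SE 0.11), Lrg1 (0.86, SE 0.13), Serpina3n (0.76, SE 0.18) and Itih3 (0.49, SE 0.11), and Fga fell (-0.26, SE 0.09), with a list median of -0.01 beside -0.0022 over all genes. Of 8 genes of interleukin-6 and STAT3 signalling 1 rose, Il6ra, which codes for the receptor (log2 1.19, SE 0.14). Of 10 genes known to respond to glucocorticoids 4 rose: Per1 (2.22, SE 0.30), Fkbp5 (1.92, SE 0.27), Errfi1 (0.57, SE 0.17) and Klf9 (0.46, SE 0.09), with a list median of 0.43. The score of this last list went with Mt1 in fasted mice at r = 0.56 (adjusted permutation p = 0.0352, rho 0.69 with 0.0823) and with Slc39a14 at r = 0.59 (adjusted permutation p = 0.0352, rho 0.63 with 0.223), and with Mt2 at r = 0.45 (adjusted permutation p = 0.348). Without the 2 mice farthest out the first 2 values were 0.44 and 0.50, and within lanes 0.35 and 0.46 (adjusted permutation p = 0.115 for both). The fasted mice alone on their lane add nothing to the values within lanes. Without the 4 mice with pancreas or adrenal RNA the first 2 values were 0.54 and 0.49 and neither passed (adjusted permutation p = 0.250 for both). Leaving out 1 mouse lost the call for Mt1 with 9 of 30 mice and for Slc39a14 with 11 of 30. The 30 include fed mice, which enter these values only through the scaling of the score, the adjustment and the draw of permutations. In fed mice r was 0.09 for Mt1 and 0.16 for Slc39a14.

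The genes whose levels over the 30 mice were most like those of each member were found among the other 11565 genes by Pearson's r of log2 CPM, with group means taken off. For Mt1 these were Mt2 (0.92), Tacc2 (0.77) and Chac1 (0.77), the last an enzyme that degrades glutathione. For Mt2 they were Mt1 (0.92), Serpina3n (0.79) and Gpcpd1 (0.76), and for Slc39a14 Trp53inp1 (0.77), Mt2 (0.74) and Mt1 (0.72). Both metallothioneins were thus among the 3 genes most like Slc39a14. For Slc30a10 the nearest were Hdhd3 (0.77), Med27 (0.69) and Steap3 (0.68). For Mtf1 they were Id4 (0.80), Trip4 (0.69) and Tmem203 (0.68), for Slc39a4 Cops4 (0.71), Ccnl2 (0.69) and Polr2g (0.69), and for Slc30a1 Akap8l (0.84), Sowahc (0.78) and Git1 (0.78). No member was among the 3 genes nearest to these last 4 genes.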

How the data were processed

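Livers of 32 mice were freeze-clamped, RNA was isolated with Trizol, and libraries were made with the Lexogen QuantSeq 3′ kit and read on 2 lanes. The authors aligned reads with HISAT 0.1.5, sorted them with SAMtools 1.2 and counted them per Ensembl gene with HTSeq 0.6.1p1 in union mode; the deposited values are raw counts, with no normalisation, for 20076 genes, of which 19913 were given symbols from a GENCODE vM21 table. The annotation release used for counting is given differently in different sources and was not settled. A 3′ tag gives about 1 read per transcript and does not resolve transcript forms. Groups follow the labels. All genes and relations to be described, and all gene lists, were chosen with earlier results of these data known. The 2 mice left out were known to stand apart in those results.

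Counts were filtered (filterByExpr), scaled by TMM and fitted with edgeR 4.0.16 (R 4.3.3) by the quasi-likelihood test over 8 group means in 30 mice, with Benjamini-Hochberg adjustment over all genes and a threshold of 0.05. MCAD-KO was compared with WT within each combination of diet and feeding in a fit of those mice alone. A count of 3 corresponds to 0.698 to 1.58 CPM. Replicates are separate mice. Relations used log2 CPM (prior count 2) with group means taken off, in fed and fasted mice apart, with 100000 two-sided permutations within groups (numpy 2.4.6), adjusted within each family of 14, 12 or 14 relations. The smallest p these can give is 1e-05. Pairs of mice of a group differed by at least 4.17 times counting noise (chi-square per gene), so none counts as 1 library. Same-numbered mice of different groups did not deviate together (42 pairs, median correlation of -0.0002, range -0.15 to 0.17). Scripts were tested on simulated data: at log2 changes of 1 and 2 in the fasting comparison, 89.9% of 99 and 100.0% of 95 changed genes out of 11107 were called. The simulation gave all genes the same dispersion and used all 30 mice. These shares therefore do not hold for Mt1 and Mt2, whose spread within groups was larger than for 97.3% and 99.2% of genes. Nor do they hold for the genotype fits within single combinations, which used fewer mice. Alternatives were DESeq2 1.42.0, DESeq2 size factors, total counts, no filter, all mice, lane or age as a term, a replicate block, one fit for all genotype comparisons, a prior count of 0.5, leaving out each mouse and, chosen after seeing the data, leaving out the 4 mice with over 1000 CPM of pancreas or over 100 CPM of adrenal markers. Named genes were the 7 members, called genes of the metal lists, the 5 most abundant acute-phase genes and the 3 most related to Mt1, called genes of the signalling lists, and the 3 genes most like each member; Saa1 and Hamp were added after their values were seen.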

Additional observations from a re-analysis of the deposited data

Results flagged for a closer look

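Among 42 combinations of gene and group with 4 mice, 4 held a mouse that stood far from the other 3, and chance gives about 1 in 20. Slc39a14 was at 103 CPM in WT high-fat fed replicate 2, against 70.8 to 72.5 CPM in the other 3 mice. This mouse also had the highest Mt1 and Mt2 of all fed mice. Slc30a1 was at 60.3 CPM in MCAD-KO low-fat fasted replicate 2, against 89.2 to 92.3 CPM, and at 59.4 CPM in WT high-fat fed replicate 4, against 80.1 to 83.8 CPM. Slc30a10 was at 71.0 CPM in WT high-fat fasted replicate 3, against 45.1 to 48.4 CPM.

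WT low-fat fed replicate 2, which was left out of the 30 mice and returned in the alternatives with all mice, was above all 3 mice of its group in 4 of the 7 genes. Its CPM was scaled with all 32 mice and that of the others with the 30, so small gaps may depend on the scaling. Mt1 was at 143 CPM against 23.6 to 24.2 CPM, Mt2 at 97.7 against 14.5 to 19.4 CPM, Mtf1 at 34.2 against 19.1 to 32.4 CPM and Slc39a4 at 71.2 against 22.8 to 38.7 CPM. Its Slc30a10 was at 14.5 CPM, below the 35.8 CPM of the lowest of the 30 mice used.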

How the results depend on the processing

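Among the members and the other metal genes, no fold change or r that passed its test reversed its sign under the alternatives run. The sign of rho was not followed. Mt1 passed by rank with the acute-phase score in fasted mice, and its r with that score was negative within lanes. Mt1 and Mt2 stayed far above fed levels in fasted mice, at log2 values of 4.27 to 4.74 and 4.01 to 4.66 when 1 mouse was left out, and of 4.37 and 4.21 with all 32 mice. For Slc30a1 the fitted effect of fasting was -0.003 with total counts. The effect on Slc39a4 moved to -0.66 with all 32 mice. Leaving out 1 mouse gave 0 to 1 members called for the interaction of fasting with diet, 0 to 1 for the spread and 5 to 6 other metal genes called, against 3 with all 32 mice. In low-fat fed mice 1 member, Mt1, was called for genotype when no filter was applied, and 1, again Mt1, when lane was fitted. Over all genes the fit with no filter called 39 of 16916, and the fit with lane 2 of 10366, as many as the main fit.

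Relations moved most. To the acute-phase score 0 members passed by r, also when 1 mouse was left out. By rank 2 passed as reported, 0 with all 32 mice and 0 within lanes. By rank 1 passed without the 4 mice with other tissue RNA, and 0 to 3 when 1 mouse was left out. Related to Mt1 were 3, with 0 without those 4 mice and 1 to 3 when 1 mouse was left out, and by rank 1, with 2 over all 32 mice, 3 within lanes and 1 to 2 when 1 mouse was left out. For the glucocorticoid score 2 passed by r, with 0 over all 32 mice, 1 within lanes, 0 without those 4 mice and 0 to 2 when 1 mouse was left out, and 0 by rank, with 1 over all 32 mice, 1 with a prior count of 0.5 and 0 to 1 when 1 mouse was left out. The cause was not tested. With the replicate block the members called in each of the 8 comparisons stayed at 0, other metal genes called were 6, and the relations passing were 0 by rank for the acute-phase score, 3 by rank for Mt1, and 1 by r and 1 by rank for the glucocorticoid score. Replicate numbers only name the mice, so the block is a check and no pairing. With 3 or 4 mice a group and fasted metallothionein levels spanning up to 21.0-fold, the intervals of the metallothionein genotype differences were wide. A difference that was not called is therefore not shown to be absent. For Mt1 in low-fat fed mice the interval lay below 0, and the call changed with the fit.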
